A study of Homo sapiens with 20 samples.

Results

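The genes SPI1, SPIB, SPIC, ETS1, ETS2, FLI1, ERG, ELF1, ETV6 and EHF, 10 of the 28 human genes for ETS transcription factors, were followed through 20 lists of ChIP-seq regions. A region was taken for a gene where it overlapped the gene body in GENCODE 44 (GRCh38) or the 25 kb on either side of it. By this rule 544 of the 562813 regions lay at the 10 genes, out of 20033 protein-coding genes, and merging overlapping regions over all lists gave 209 sites. The windows spanned 61.7 to 332 kb and 1.52 Mb in all. The windows of SPI1, SPIB, FLI1 and ELF1 also held other coding genes, so that a region there cannot be given to one gene by position alone.

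The study used ChIP-seq to ask where POU2F3 and its coactivators, in POU2F3-driven small cell lung cancer (SCLC-P), and POU2AF1 and IRF4, in multiple myeloma, bound chromatin once the mSWI/SNF remodelling complex had lost its ATPases. Cells of 4 established lines were given 1 µM of AU-15330, a PROTAC against SMARCA2 and SMARCA4, the ATPases of that complex, or the solvent DMSO. The labels give 6 h for both HA-tag libraries of NCI-H1048 with AU-15330 and from 4 to 6 h for the series as a whole.

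The SCLC-P lines were NCI-H526 and NCI-H1048, each profiled with AU-15330 and with DMSO. NCI-H526 libraries used an antibody to POU2F3, or to the HA tag on a dTAG-fused POU2F3 or a dTAG-fused POU2AF2. NCI-H1048 libraries used the POU2F3 antibody, the HA tag on dTAG-fused POU2F3, or an HA tag on a protein that the labels do not name. The tagged proteins were lentiviral, in Cas9-expressing cells in which the endogenous gene had been knocked out, so those lines differ from their parents in more than the tag. The myeloma lines were MM1.S and NCI-H929, each with AU-15330 and with DMSO, and with antibodies to POU2AF1 or to IRF4. Each of the 20 conditions was 1 library. The differences below therefore have no replicate check, no test between treatments was possible, and the intervals given cover counting error only. Because different proteins were precipitated from each tumour, tumour and protein cannot be told apart.

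The lists held 1327 to 89902 regions, and the tag numbers estimated from the library background were 17.3 to 53.7 M. The estimates took the width of the narrowest region in each list as the fragment length, which was not measured. NCI-H1048 POU2F3 stood apart from the other pairs, since its AU-15330 list was the longer one, with 51408 regions against 38036 with DMSO, from an estimated 40.6 M tags against 30.6 M. The part of depth in results on that pair was not tested, and they are given with it and without it where it matters. The lists of the unnamed HA protein gave no summit position, and so no level, tag number or motif. Of 8 tuft cell marker genes, 8 had a region in 5 of the 6 SCLC-P DMSO lists and 7 in the list of the unnamed protein, and all 8 plasma cell marker genes had one in the 4 myeloma DMSO lists. However, 6 to 7 of the tuft genes also had one in the myeloma DMSO lists, and 3 to 8 of the plasma cell genes in the SCLC-P ones. Marker regions were thus not particular to a tumour. Of 5 neuroendocrine and 5 myeloid marker genes, NCI-H526 POU2F3 with DMSO had a region at 4 and 3, and MM1.S POU2AF1 at 2 and 5. These counts took the gene body and 10 kb each side, and the share of all coding genes in such windows was not computed. The lists hold no expression, and a region does not show that its gene is on.

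ETS factors share a DNA-binding domain that reads a GGAA core. SPI1, which encodes PU.1, and SPIB direct myeloid and B cell development, and both recruit IRF4 and IRF8 to composite elements in which a GGAA core lies next to the GAAA core of the IRF site. POU2F factors read an octamer whose core is ATGCAAA, and POU2AF1 in B lineage cells or POU2AF2 in tuft cells joins them there. The 10 genes thus include factors known as partners of IRF4 and factors of lymphoid cells (ETS1, FLI1, ELF1). They also include a factor of endothelium and blood stem cells (ERG), an ETS repressor (ETV6) and a factor of epithelia (EHF). SPI1 and SPIB are known to be low in plasma cells, and POU2F3 is the master factor of tuft cells, an epithelial lineage.

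The sequences that carry these regions come first. Each is the reference sequence of GRCh38, on the plus strand, read 5′ to 3′ around the summit of a region called with DMSO, and all but the SPI1 sequence run 50 bases each side of that summit. Capitals mark matches, on either strand, to the octamer core TTTGCAT or ATGCAAA, the ETS-IRF composite (GGAA and GAAA with any 2 bases between them), the AP-1 site TGANTCA, or the RUNX site AACCACA or TGTGGTT. The SPIB, SPIC and FLI1 sequences, from introns of those genes, are shown because they had the highest enrichment at each gene and hold the octamer core, SPIC with 2 copies. ETS1 (upstream) is shown because all 4 myeloma lists and 4 SCLC-P lists called it with DMSO.
SPIB, chr19:50422618-50422718, NCI-H526 HA-POU2AF2: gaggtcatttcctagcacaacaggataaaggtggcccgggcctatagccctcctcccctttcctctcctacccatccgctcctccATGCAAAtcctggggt
SPIC, chr12:101485546-101485646, NCI-H1048 POU2F3: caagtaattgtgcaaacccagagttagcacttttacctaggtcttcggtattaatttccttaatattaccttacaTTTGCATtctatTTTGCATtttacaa
FLI1, chr11:128750048-128750148, NCI-H526 POU2F3: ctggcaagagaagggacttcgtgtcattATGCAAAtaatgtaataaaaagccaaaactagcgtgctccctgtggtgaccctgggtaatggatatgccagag
ETS1, chr11:128611043-128611143, MM1.S POU2AF1: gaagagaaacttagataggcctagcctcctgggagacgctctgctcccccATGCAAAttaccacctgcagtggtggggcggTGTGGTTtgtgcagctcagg

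The next sequences set the tumours side by side. EHF had its strongest SCLC-P regions in an intron, where an AP-1 site lies 1 base from an octamer core, and its strongest myeloma region downstream of the gene, where the sequence holds an AP-1 site and no octamer core. ETS2 (upstream), around a NCI-H929 IRF4 summit, holds 2 AP-1 sites, in a merged site called in both tumours. The NCI-H526 HA-POU2F3 region of that site does not reach the printed bases. The ETV6 intron sequence, from the region with the highest enrichment of any SCLC-P region at the 10 genes, holds none of the patterns. SPI1 (upstream), printed 75 bases each side of the summit, holds an ETS-IRF composite near one end and an octamer core near the other. The EHF intron and SPI1 sequences were chosen after their values were seen.
EHF intron, chr11:34654073-34654173, NCI-H526 POU2F3: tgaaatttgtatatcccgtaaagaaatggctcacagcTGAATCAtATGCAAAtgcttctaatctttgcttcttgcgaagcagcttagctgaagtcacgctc
EHF downstream, chr11:34685366-34685466, NCI-H929 IRF4: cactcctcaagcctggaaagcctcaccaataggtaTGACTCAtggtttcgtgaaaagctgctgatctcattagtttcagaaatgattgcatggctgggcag
ETS2 upstream, chr21:38787636-38787736, NCI-H929 IRF4: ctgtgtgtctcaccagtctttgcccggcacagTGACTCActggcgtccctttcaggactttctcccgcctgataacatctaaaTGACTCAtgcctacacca
ETV6 intron, chr12:11807596-11807696, NCI-H1048 HA-POU2F3: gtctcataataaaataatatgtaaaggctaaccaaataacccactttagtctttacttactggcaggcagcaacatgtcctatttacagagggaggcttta
SPI1 upstream, chr11:47400775-47400925, NCI-H526 HA-POU2AF2: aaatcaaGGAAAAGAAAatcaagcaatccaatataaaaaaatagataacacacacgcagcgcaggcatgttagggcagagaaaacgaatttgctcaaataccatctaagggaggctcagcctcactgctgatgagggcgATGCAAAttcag

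Without the degrader, nearly every list had regions at most of the 10 genes. In NCI-H526 with DMSO, all 10 genes had a region in the POU2F3, HA-POU2F3 and HA-POU2AF2 lists, where 89.6%, 84.3% and 74.2% of protein-coding genes had one. In NCI-H1048 with DMSO the POU2F3 list had regions at 9 of the genes (76.4% of coding genes), the HA-POU2F3 list at 6 (51.5%) and the list of the unnamed HA protein at 8 (51.2%). Myeloma lists with DMSO had regions at 8 genes for MM1.S POU2AF1 (83.8%), 9 for MM1.S IRF4 (78.3%), 9 for NCI-H929 POU2AF1 (81.2%) and 9 for NCI-H929 IRF4 (90.4%). SPIC, which drives red pulp macrophages in mice, was the gene without a region in each of the 4 myeloma DMSO lists, and SPIB was the other one in the MM1.S POU2AF1 list. The windows of the 10 genes are long, and a gene with a region is a common state in these lists.

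Region density shows the same lists without the effect of window length. Regions per Mb in the 10 windows, divided by regions per Mb in the windows of all coding genes, were 2.03 (95% interval 1.67 to 2.44) for NCI-H526 POU2F3, 1.53 (1.14 to 2.00) for HA-POU2F3 and 2.00 (1.44 to 2.69) for HA-POU2AF2 with DMSO. In NCI-H1048 with DMSO the ratio was 1.87 (1.17 to 2.83) for HA-POU2F3, 1.81 (1.11 to 2.80) for the unnamed HA protein and 1.14 (0.743 to 1.66) for POU2F3. In myeloma with DMSO it was 1.61 (1.13 to 2.22) for MM1.S IRF4, 1.42 (0.997 to 1.95) for MM1.S POU2AF1, 1.16 (0.858 to 1.53) for NCI-H929 IRF4 and 1.03 (0.646 to 1.56) for NCI-H929 POU2AF1. The interval lay above 1 in 6 lists and included 1 in the other 4. For NCI-H526 POU2F3 and HA-POU2AF2 it also lay above 1 with windows of 10 kb or 50 kb each side and with −log10 q of at least 5. The lower bound fell below 1 with 10 kb for NCI-H526 HA-POU2F3 (0.968 to 1.86), NCI-H1048 HA-POU2F3 (0.946 to 2.68) and the unnamed HA protein (0.919 to 2.71), and with the stricter q for NCI-H1048 HA-POU2F3 (0.945 to 3.19), the unnamed HA protein (0.848 to 5.02) and MM1.S IRF4 (0.799 to 2.19). With 50 kb MM1.S POU2AF1 came to lie above 1 (1.14 to 2.01). With DMSO, EHF alone held 9 of the 22 NCI-H1048 HA-POU2F3 regions and 9 of the 20 of the unnamed HA protein. In NCI-H526 POU2F3 it held 15 of 110. Regions clustered at 1 gene are not independent counts, and the ratios without EHF were not computed.

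**Figure D1:**
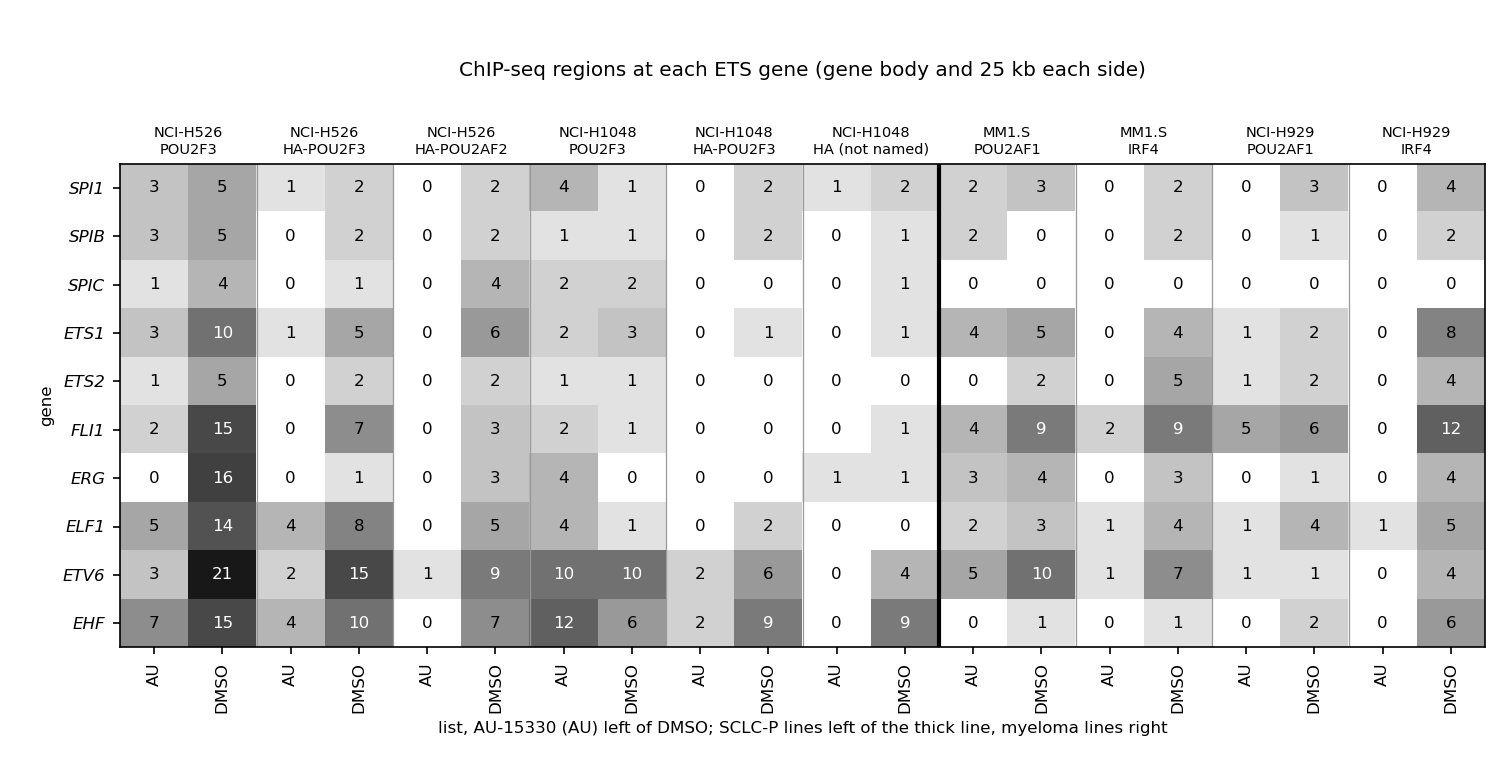
Number of regions at each ETS gene (rows) in each of the 20 lists (columns, AU-15330 left of DMSO), with SCLC-P left of the thick line and myeloma right of it. Darker cells hold more regions. ETV6 had 3 regions with AU-15330 against 21 with DMSO in NCI-H526 POU2F3, SPIC had none in any myeloma list, and EHF had none with AU-15330 in any myeloma list.

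With AU-15330, most DMSO regions at the 10 genes had no overlapping region left, and the share that stayed ranged from 0 to 50% over the 10 pairs. A DMSO region was counted as retained where it overlapped at least 1 region of the matching AU-15330 list. In NCI-H526, 26 of 110 POU2F3 regions were retained (23.6%, exact 95% interval 16.1 to 32.7), against 16.7% of the whole list. HA-POU2F3 kept 5 of 53 (9.43%, 3.13 to 20.7), against 14.6% of the whole list, and HA-POU2AF2 kept 1 of 43 (2.33%, 0.0589 to 12.3), against 1.26%. The intervals of POU2F3 and of the coactivator HA-POU2AF2 did not overlap, but they did under 3 of 8 alternatives, namely 10 kb windows (14.8 to 33.6 against 0.0723 to 14.9), 50% of the DMSO region covered (6.45 to 19.4 against 0 to 8.22) and equal numbers of regions (32.2 to 75.6 against 0.361 to 57.9).

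NCI-H1048 gave the highest and the lowest share. POU2F3 kept 13 of 26 regions (50%, 29.9 to 70.1), against 44.6% of its list, HA-POU2F3 kept 1 of 22 (4.55%, 0.115 to 22.8), against 7.72%, and the unnamed HA protein kept 0 of 20 (0 to 16.8%), against 1.95%. The antibody to POU2F3 and the tag on POU2F3 gave shares whose intervals did not overlap, and the POU2F3 pair is the one in which the AU-15330 list was the longer. Under 4 of 8 alternatives the intervals overlapped, the lower bound for the antibody and the upper bound for the tag being 29.8 and 30.2 with 10 kb windows, 38.3 and 38.5 with −log10 q of at least 5 for DMSO regions, 27.8 and 38.5 with that threshold in both lists, and 26.6 and 64.1 with equal numbers of regions.

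In both myeloma lines the share was larger for the coactivator POU2AF1 than for IRF4, a lymphoid factor on which myeloma cells are known to depend, although the intervals overlapped. MM1.S POU2AF1 kept 10 of 37 (27.0%, 13.8 to 44.1), against 33.7% of its list, and MM1.S IRF4 kept 3 of 37 (8.11%, 1.70 to 21.9), against 9.76%. NCI-H929 POU2AF1 kept 6 of 22 (27.3%, 10.7 to 50.2), against 38.4%, and NCI-H929 IRF4 kept 1 of 49 (2.04%, 0.0517 to 10.9), against 0.888%. In all 10 pairs the share of the whole list lay inside the interval of the 10 genes, so retention at these genes was not distinguishable from that of each list at this number of regions.

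**Figure D2:**
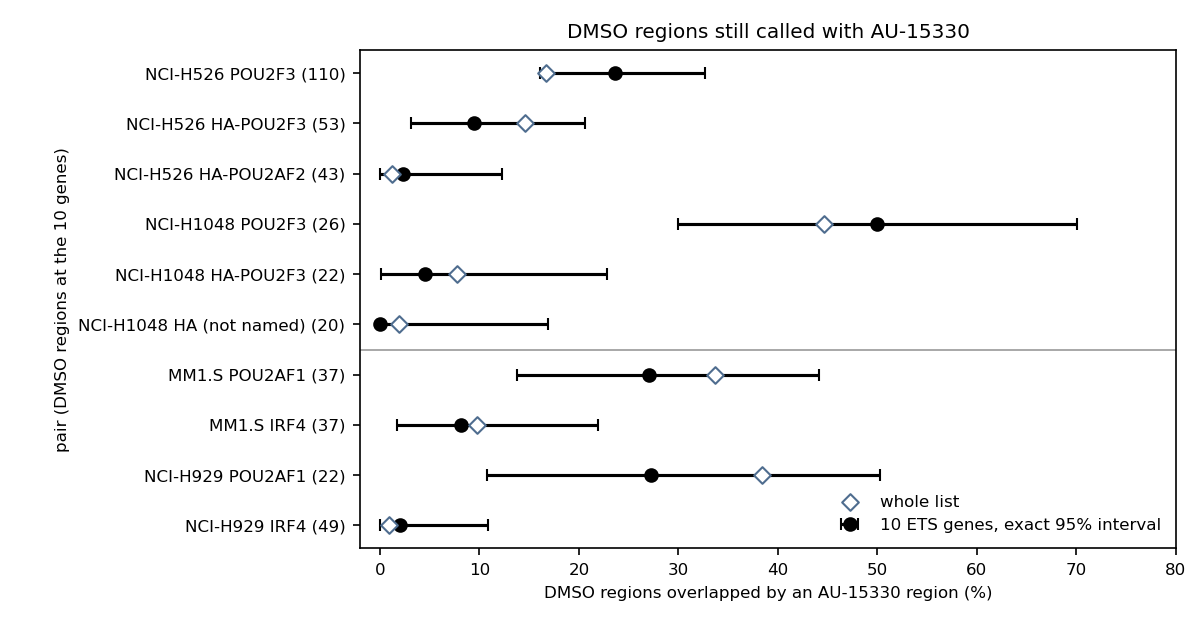
Share of DMSO regions that overlapped a region of the matching AU-15330 list (x axis, percent), for the 10 ETS genes (filled circles with exact 95% binomial intervals) and the whole list (open diamonds), with the number of DMSO regions in brackets. Every diamond lies within the interval of its pair, from 50% at the ETS genes in NCI-H1048 POU2F3 to 0 of 20 for the unnamed HA protein.

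Depth differed between the members of some pairs. NCI-H526 POU2F3 had an estimated 26.9 M tags with AU-15330 and 53.7 M with DMSO, and NCI-H526 HA-POU2AF2 had 17.3 M with AU-15330 and 46.9 M with DMSO. At the depth of the AU-15330 library, 90% of the 110 POU2F3 regions and 74.4% of the 43 HA-POU2AF2 regions would still have passed that library's threshold at an unchanged level. Of the regions that would have passed, 26.3% of the POU2F3 ones and 1 of 32 of the HA-POU2AF2 ones were retained. The other 7 pairs with summits had 97.3% to 100% of regions callable in this way.

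Where a region was retained, its level was compared as well. The level is the height of the stack of fragments at the summit divided by the mean height expected over the genome in the same library. In NCI-H526 POU2F3 the level with AU-15330 was 0.663 of that with DMSO at the median retained region (range 0.364 to 1.33), and it was lower at 22 of 26 regions. The median over the whole list was 0.635. HA-POU2F3 in the same line had a median of 0.607 over 5 regions (0.277 to 1.18) and a whole-list median of 0.642. The 1 retained HA-POU2AF2 region stood at 0.630, with 0.798 over its list.

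The other pairs differed in direction. NCI-H1048 POU2F3 had a median of 1.15 over 13 retained regions (0.489 to 2.32), lower at 6 and higher at 7, where its whole list had 1.27. The 1 retained HA-POU2F3 region of that line stood at 0.565, with 0.728 over the list. MM1.S POU2AF1 had a median of 0.830 over 10 regions, lower at 8 (list 0.809), MM1.S IRF4 had 0.695 over 3, lower at all 3 (list 0.733), and NCI-H929 POU2AF1 had 0.893 over 6, lower at 4 (list 0.979). The 1 retained NCI-H929 IRF4 region stood at 0.513, with 0.491 over the list. These ratios rest on regions called in both libraries and leave out every region that was lost.

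**Figure D3:**
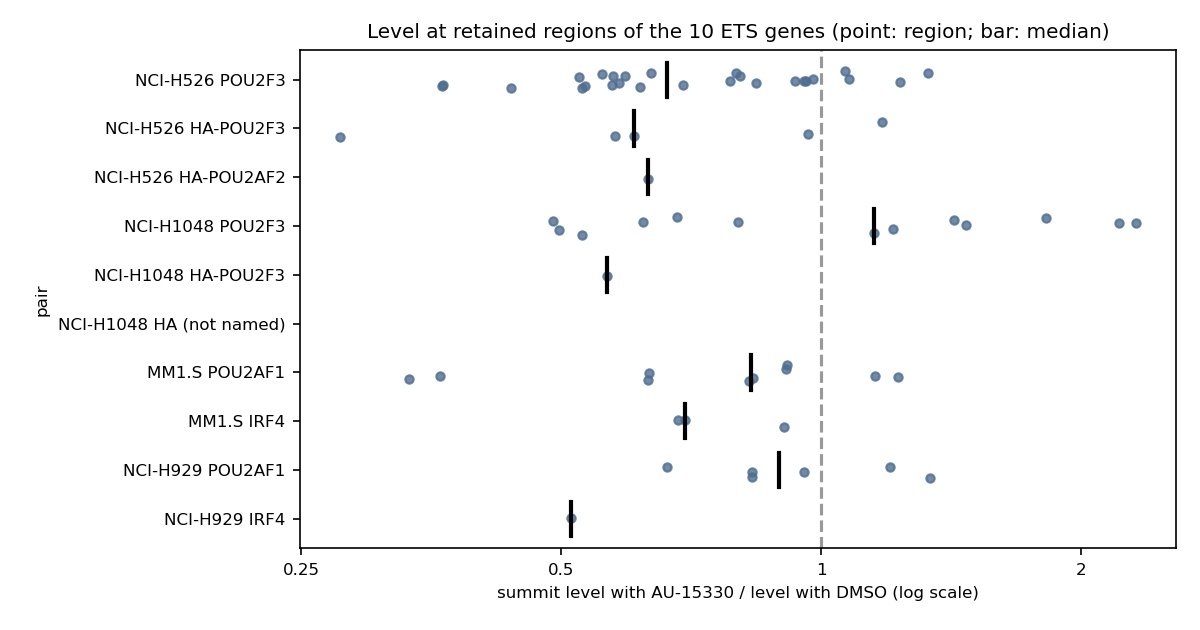
Level at the summit with AU-15330 divided by the level with DMSO (x axis, log scale) at each retained region of the 10 ETS genes (points, with small vertical offsets for display), by pair, with the median as a bar and 1 as a dashed line. The median was below 1 in 8 of the 9 pairs with a value, the exception being NCI-H1048 POU2F3 at 1.15. The unnamed HA protein had no retained region and no level.

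Retained regions had stood higher with DMSO in some pairs and not in others. The median fold enrichment with DMSO, as the peak caller gave it, was 6.45 for retained and 3.97 for lost regions in NCI-H526 POU2F3, 6.45 and 4.55 in NCI-H1048 POU2F3, and 5.39 and 4.21 in MM1.S POU2AF1. In NCI-H929 POU2AF1 the order was the other way, with 4.24 for retained and 5.35 for lost regions. There, 5 of 6 promoter regions (within 1 kb of a transcription start of the gene) were retained, against 1 of 16 elsewhere.

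Of the 419 DMSO regions at the 10 genes, 201 lay in introns (48.0%), 75 at promoters (17.9%), 70 upstream, 63 downstream and 10 in exons. Over all pairs 21 of 75 promoter regions were retained (28%), against 45 of 344 other regions (13.1%). The gap was 11 of 44 (25%) against 35 of 230 (15.2%) in SCLC-P and 10 of 31 (32.3%) against 10 of 114 (8.77%) in myeloma. The promoter share was the larger in 7 of the 10 pairs. It was not in NCI-H526 HA-POU2AF2 (0 of 8 promoter regions against 1 of 35 others), NCI-H1048 HA-POU2F3 (0 of 6 against 1 of 16) and the unnamed HA protein (0 of 3 against 0 of 17). Over the whole lists, with a start of any coding gene, the promoter share was the larger in all 10 pairs, with 22.6% against 15.7% in NCI-H526 POU2F3 and 74.6% against 16.6% in NCI-H929 POU2AF1. Several of the regions at the 10 genes are the same site seen with several proteins, so they are not independent counts.

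EHF, an ETS factor of epithelia, had 56 DMSO regions in the 6 SCLC-P lists and 10 in the myeloma lists. The 10 genes together had 274 and 145. The SCLC-P regions of EHF lay at 20 sites and 15 were retained, where the 10 genes together kept 46 of 274. The myeloma regions lay at 6 sites and none was retained, where the 10 genes together kept 20 of 145. No whole-list share pooled over pairs was computed. Both tumours shared 2 sites with DMSO. At EHF, 3 sites were called in all 6 SCLC-P DMSO lists, and they lay 24.7 kb upstream, at the promoter and 33.0 kb inside the gene.

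The intron site of EHF, chr11:34653800-34654409, is the one whose octamer and AP-1 patterns are printed above. Its fold enrichment with AU-15330 and DMSO was 8.31 and 11.0 in NCI-H526 POU2F3, 14.2 and 10.8 in NCI-H1048 POU2F3, and 7.29 and 9.04 in NCI-H1048 HA-POU2F3. With DMSO alone it was 10.8 in NCI-H526 HA-POU2F3, 8.98 in HA-POU2AF2 and 6.21 for the unnamed HA protein, which lost it. The level was 24.2 with AU-15330 and 39.2 with DMSO in NCI-H526 POU2F3 (ratio 0.618), 15.9 and 28.1 in NCI-H1048 HA-POU2F3 (0.565), but 68.5 and 29.6 in NCI-H1048 POU2F3 (2.32). This was the only one of the 22 DMSO regions at the 10 genes that NCI-H1048 HA-POU2F3 retained.

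At the EHF promoter, chr11:34620720-34621554, 3 AU-15330 lists still had a region. The level ratio there was 0.805 in NCI-H526 POU2F3, 0.578 in NCI-H526 HA-POU2F3 and 1.47 in NCI-H1048 POU2F3, and HA-POU2AF2, with a fold of 4.07 with DMSO, lost it. Upstream, chr11:34595919-34596909 had a fold of 9.37 with AU-15330 and 9.81 with DMSO in NCI-H526 POU2F3 (level ratio 0.960), and 10.0 and 6.48 in NCI-H1048 POU2F3 (1.82). The 4 HA lists lost that region. In NCI-H1048 POU2F3 the strongest region called with AU-15330 and not with DMSO at EHF was chr11:34613867-34614320, 6.97 kb upstream, with a fold of 11.7.

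In myeloma the leading EHF region lay 64.3 kb from the start, downstream of the gene, at chr11:34685174-34685715. Its fold with DMSO was 14.6 in NCI-H929 IRF4, where it ranked 543 by fold, 5.30 in NCI-H929 POU2AF1, 5.21 in MM1.S POU2AF1 and 4.38 in MM1.S IRF4. All 4 lost it with AU-15330, and no SCLC-P list called it. An intron region at chr11:34634104-34634900 was called in both tumours, with 10.2 in NCI-H929 IRF4 and 10.1 in NCI-H526 HA-POU2F3 with DMSO. The IRF4 region was lost, and the HA-POU2F3 region was retained at a level ratio of 0.277, the lowest of any retained region in that pair.

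ETV6, an ETS repressor known from the ETV6-RUNX1 fusion of childhood leukaemia, had the most sites of the 10 genes, 46. The SCLC-P DMSO lists held 65 regions at 26 sites, and 14 sites were called in myeloma with DMSO. Of the 65 regions 6 were retained, where the 10 genes together kept 46 of 274 in SCLC-P. Whole-list shares in the SCLC-P pairs ran from 1.26% to 44.6%, and a pooled one was not computed. The strongest, chr12:11807034-11807960, lay in an intron 158 kb from the canonical start. Its fold with DMSO was 14.4 in NCI-H1048 HA-POU2F3 (rank 63 by fold), 13.7 in NCI-H526 POU2F3 (rank 771), 11.8 in NCI-H1048 POU2F3, 9.81 in NCI-H526 HA-POU2F3, 8.63 in NCI-H526 HA-POU2AF2 and 8.09 for the unnamed HA protein (rank 74). It was high in every SCLC-P DMSO list, and in myeloma only MM1.S POU2AF1 called it, at 4.80.

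With AU-15330 this ETV6 region was called in 3 lists. Its level was 21.7 with AU-15330 and 41.4 with DMSO in NCI-H526 POU2F3 (ratio 0.525), 20.7 and 30.5 in NCI-H1048 POU2F3 (0.681), and 9.93 and 15.8 in NCI-H526 HA-POU2AF2 (0.630). It was the only HA-POU2AF2 region retained at the 10 genes. Both HA-POU2F3 lists lost it, including the one in which it ranked 63. None of the 9 lists with a summit that called the site with DMSO or AU-15330 had an octamer core within 100 bases of its main summit, although 1 additional NCI-H1048 POU2F3 region with AU-15330, at chr12:11807089-11807352, did.

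Another ETV6 site was called with DMSO in every SCLC-P list and lost in each. It lay downstream of the gene at chr12:11915395-11916225, with folds from 3.51 for the unnamed HA protein to 10.6 in NCI-H526 POU2F3. In myeloma the strongest ETV6 region overlapped an exon, chr12:11894931-11895301, with a fold of 10.7 in NCI-H929 IRF4 and 3.87 in MM1.S IRF4, and both lost it. The ETV6 promoter, chr12:11648676-11650306, was called in all 4 myeloma DMSO lists and 3 SCLC-P ones. There MM1.S POU2AF1 had a fold of 5.27 with AU-15330 and 4.93 with DMSO (level ratio 0.910), while NCI-H929 IRF4 lost a region of 9.50.

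FLI1, a factor of megakaryocytes and B cells and the fusion partner of EWSR1 in Ewing sarcoma, had 15 DMSO sites in each tumour, and the 6 called in both were the most of any of the 10 genes. The octamer site printed above, chr11:128749598-128750297, was a SCLC-P site, in an intron 56.0 kb from the start. Its fold with DMSO was 9.64 in NCI-H526 POU2F3, 8.49 in HA-POU2F3, 5.36 in HA-POU2AF2 and 4.46 in NCI-H1048 POU2F3. With AU-15330 it was called only in NCI-H526 POU2F3, with a fold of 4.56 and a level ratio of 0.365.

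Myeloma regions of FLI1 lay at the promoter and at 31.6 kb and 63.4 kb from the nearest start, among other places, and all 4 DMSO lists called these 3 sites. At chr11:128725448-128726417 the fold was 4.56 with AU-15330 and 4.30 with DMSO in MM1.S IRF4 (level ratio 0.683), and the other myeloma lists lost regions of 5.08 to 8.53. All 3 NCI-H526 DMSO lists also called it, with 3.99 to 5.12, and lost it. At the promoter, chr11:128693615-128695064, NCI-H929 POU2AF1 had a fold of 3.76 with AU-15330 and 3.5 with DMSO (0.954) and MM1.S POU2AF1 had 3.19 and 6.71 (0.333). This gene carried 5 of the 9 regions of NCI-H929 POU2AF1 with AU-15330.

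**Figure D4:**
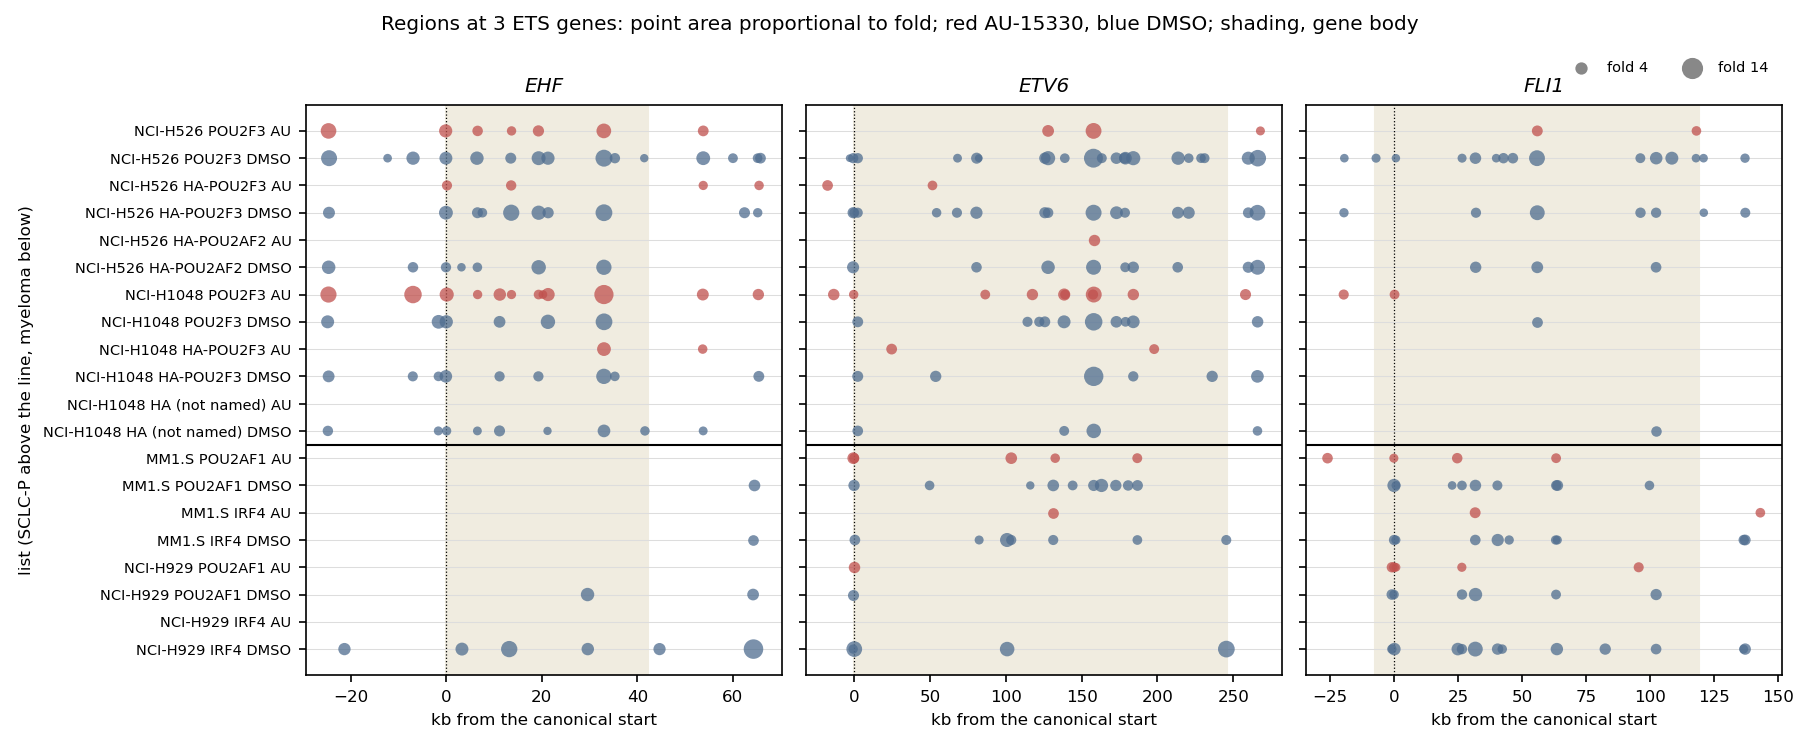
Regions along EHF, ETV6 and FLI1 by list (rows, AU-15330 above DMSO, SCLC-P above the line and myeloma below), against distance of the summit from the canonical start (x axis, kb), with point area proportional to the fold given by the peak caller, red for AU-15330, blue for DMSO and shading for the gene body. The lists of the unnamed HA protein are drawn at region centres. EHF showed SCLC-P regions over the whole window and a myeloma column at 64.3 kb, ETV6 a SCLC-P column at 158 kb, and FLI1 a myeloma column at its start.

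ETS1, a lymphoid factor that holds back plasma cell differentiation in mice, had 13 SCLC-P and 11 myeloma sites with DMSO, of which 3 were shared. The upstream site printed above, chr11:128610514-128611595, lay 23.5 kb from the start. Its fold with DMSO was 6.99 in NCI-H526 POU2F3, 6.23 in HA-POU2F3, 3.81 in HA-POU2AF2 and 4.29 in NCI-H1048 POU2F3, and 8.99 in MM1.S POU2AF1, 4.54 in MM1.S IRF4, 8.23 in NCI-H929 POU2AF1 and 7.80 in NCI-H929 IRF4. Only MM1.S POU2AF1 still called it with AU-15330, at a fold of 4.55 and a level ratio of 0.362.

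A neighbouring ETS1 site was of the SCLC-P lists alone. At chr11:128602813-128603614, 15.8 kb upstream, the fold was 6.95 with AU-15330 and 8.52 with DMSO in NCI-H526 POU2F3 (level ratio 0.593) and 3.90 and 5.84 in NCI-H1048 POU2F3 (0.528). The HA lists called it with DMSO at 3.57 to 7.62 and lost it. An internal ETS1 promoter, chr11:128522025-128522987, was called with DMSO in all 4 myeloma lists and 4 SCLC-P lists. It stayed in NCI-H526 POU2F3 (level ratio 0.955), NCI-H1048 POU2F3 (1.42) and NCI-H929 POU2AF1 (1.2), and the IRF4 lists lost regions of 5.64 and 7.03.

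ETS2, which responds to RAS and MAPK signalling, had 6 SCLC-P and 6 myeloma sites with DMSO, 2 of them shared. The 2 AP-1 sites printed above lie in the merged site chr21:38787475-38788279, upstream of the gene. The NCI-H526 POU2F3 region overlaps them, but the AP-1 match near its own summit is another, at chr21:38787951-38787957. The NCI-H526 HA-POU2F3 region does not reach the printed sites. In this merged site the fold was 5.11 with AU-15330 and 5.87 with DMSO in NCI-H526 POU2F3 (level ratio 0.797). With DMSO alone it was 4.45 in HA-POU2F3, 10.5 in NCI-H929 IRF4 and 7.68 in NCI-H929 POU2AF1. The POU2F3 antibody region stayed, while the HA-POU2F3 region and both NCI-H929 regions were lost. The promoter, chr21:38804995-38806525, was called with DMSO in all 4 myeloma lists at 2.98 to 5.88, and NCI-H929 POU2AF1 kept it (level ratio 1.34).

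SPI1, the master factor of myeloid cells, had 12 sites, of which 6 were called with DMSO in each tumour and 3 in both. The upstream site printed above, chr11:47400122-47401199, lay 22.3 kb from its start and 6.28 kb from that of SLC39A13, which is nearer. Its highest fold with DMSO was 7.80 in NCI-H526 HA-POU2AF2, 7.45 in NCI-H526 POU2F3, 5.83 in NCI-H1048 POU2F3, 4.11 in NCI-H526 HA-POU2F3, 3.65 for the unnamed HA protein and 3.63 in NCI-H1048 HA-POU2F3. In myeloma with DMSO it was 5.21 in MM1.S POU2AF1, 4.2 in NCI-H929 POU2AF1 and 4.13 in MM1.S IRF4.

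All of these SPI1 regions were lost, although NCI-H1048 POU2F3 had another region with AU-15330 in the same site, at a fold of 3.80. The ETS-IRF pattern lay within 100 bases of the summit in the 3 NCI-H526 lists and both MM1.S lists, and the octamer core within 100 bases in the 3 NCI-H526 lists and NCI-H1048 POU2F3 and HA-POU2F3. The region inside the gene at chr11:47373945-47374361 was kept by MM1.S POU2AF1, with a fold of 4.88 with AU-15330 and 5.88 with DMSO (level ratio 0.912). NCI-H929 lost it with both proteins.

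SPIB, a factor of B cells, plasmacytoid dendritic cells and intestinal M cells, had 7 SCLC-P and 4 myeloma sites with DMSO and 1 shared. The octamer site printed above, chr19:50422475-50422978, was in an intron. Its fold was 5.86 with AU-15330 and 6.73 with DMSO in NCI-H526 POU2F3 (level ratio 0.635). With DMSO alone it was 9.56 in HA-POU2AF2, where it ranked 613 by fold, 6.44 in HA-POU2F3 and 4.48 for the unnamed HA protein of NCI-H1048. The POU2F3 antibody region stayed, and the HA-POU2F3 and HA-POU2AF2 regions of the same line were lost.

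The SPIB promoter region of NCI-H526 POU2F3, chr19:50419554-50420005, stayed as well, with a fold of 4.87 with AU-15330 and 5.91 with DMSO (0.573). The myeloma regions lay elsewhere, at chr19:50415644-50416037 upstream of the gene, where IRF4 had a fold with DMSO of 8.75 in MM1.S (rank 788) and 6.38 in NCI-H929, and lost both. SPIC, the remaining gene of the subfamily, had 5 sites, all from SCLC-P. At chr12:101485269-101485993, the site with 2 octamer cores, the fold was 5.05 with AU-15330 and 6.09 with DMSO in NCI-H526 POU2F3 (0.932) and 4.33 and 7.64 in NCI-H1048 POU2F3 (0.489), and the HA lists of NCI-H526 lost regions of 7.17 for HA-POU2F3 and 4.77 for HA-POU2AF2.

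ERG, a factor of endothelium and blood stem cells and the fusion partner of TMPRSS2 in prostate cancer, had 16 regions in NCI-H526 POU2F3 with DMSO, with folds from 2.86 to 8.26, and none with AU-15330, in the pair where 16.7% of the whole list was retained. None of its 21 DMSO regions over the SCLC-P lists was retained, where the 10 genes together kept 46 of 274. These regions were scattered, since 17 of the 19 SCLC-P sites of ERG were called in 1 list. The highest was chr21:38360207-38360612, downstream of the gene, with 8.26 in NCI-H526 POU2F3 and 6.06 in HA-POU2AF2, and it also holds an octamer core. NCI-H1048 POU2F3 had 4 ERG regions with AU-15330 (folds 3.22 to 3.72) and none with DMSO. In that pair 67.3% of the whole AU-15330 list had no DMSO counterpart. Its AU-15330 library was also the deeper, with an estimated 40.6 M tags against 30.6 M.

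ELF1, a factor of lymphoid and myeloid cells, kept 8 of its 30 SCLC-P regions, where the 10 genes together kept 46 of 274. The site called in the most lists of all 209, 15 of 20, was chr13:41059950-41062204. It covers the start of WBP4 as well as a start of ELF1 and cannot be given to either. It was called in all 4 myeloma lists with AU-15330, with a level ratio of 0.632 in MM1.S POU2AF1, 0.695 in MM1.S IRF4, 0.833 in NCI-H929 POU2AF1 and 0.513 in NCI-H929 IRF4, and in 3 SCLC-P lists with AU-15330. It was the only region that NCI-H929 IRF4 retained at the 10 genes.

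At chr13:40921318-40922092, downstream of the gene, the fold was 6.12 with AU-15330 and 5.24 with DMSO in MM1.S POU2AF1 (level ratio 1.23), 5.40 and 5.51 in NCI-H526 POU2F3 (1.08), and 4.61 and 5.75 in NCI-H526 HA-POU2F3 (0.966). Next to it, chr13:40927810-40928322, with 2 octamer cores in its sequence, had 3.72 with AU-15330 and 9.15 with DMSO in NCI-H526 POU2F3 (0.364), and HA-POU2F3 and HA-POU2AF2 lost it. At the ELF1 promoter, chr13:41018946-41019754, NCI-H526 POU2F3 had 4.64 with AU-15330 and 6.46 with DMSO (0.557), and the highest DMSO fold, 8.15 in NCI-H1048 HA-POU2F3, was lost.

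The sites of SCLC-P and of myeloma were also set side by side. With DMSO, 130 sites were called in at least 1 SCLC-P list and 78 in at least 1 myeloma list, and 27 in both, which is 20.8% of the SCLC-P sites and 34.6% of the myeloma sites. Merged in the same way over the whole series, 20939 sites were called in both, 15.1% of the SCLC-P and 22.7% of the myeloma sites. Of the sites called with DMSO at the 10 genes, 7 of 18 promoter sites (38.9%, 17.3 to 64.3) and 20 of 163 other sites (12.3%, 7.66 to 18.3) were called in both tumours, against 56.3% and 5.30% over the whole series, where a promoter is that of any coding gene. Within SCLC-P, 7 of the 130 sites were in all 6 DMSO lists and 69 in 1 list, and within myeloma 10 of 78 were in all 4 and 48 in 1. Of the 130 SCLC-P sites 40 had a region in a SCLC-P AU-15330 list, and of the 78 myeloma sites 20 had one in a myeloma AU-15330 list. These counts within each tumour were not computed over the whole series. They therefore cannot show anything particular to the 10 genes.

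**Figure D5:**
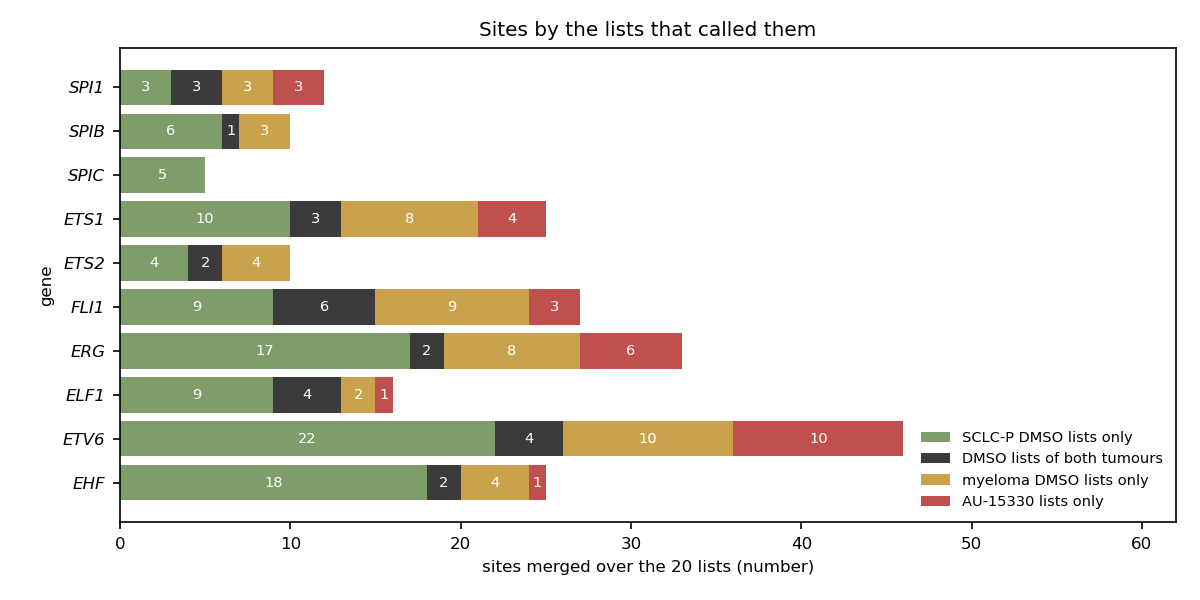
Sites at each ETS gene, merged over the 20 lists (x axis, number), split by whether they were called with DMSO in SCLC-P lists only, in lists of both tumours, in myeloma lists only, or with AU-15330 alone. FLI1 had the most sites in both tumours, 6, SPIC had none in myeloma, and EHF had 18 in SCLC-P only against 4 in myeloma only.

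Sharing between proteins was compared with that of the whole lists. In 84 of 90 ordered pairs of DMSO lists the share of the whole list lay inside the exact 95% interval of the 10 genes, and in 6 it lay below. Among NCI-H526 DMSO regions at the 10 genes, 43 of 53 HA-POU2F3 regions overlapped a POU2F3 region (81.1%, 68.0 to 90.6, whole list 64.6%), as did 35 of 43 HA-POU2AF2 regions (81.4%, whole list 75.4%). In NCI-H929, 18 of 22 POU2AF1 regions overlapped an IRF4 region (81.8%, whole list 71.3%), and in MM1.S 19 of 37 did (51.4%, whole list 48.8%). Across tumours, 17 of the 110 NCI-H526 POU2F3 regions overlapped a NCI-H929 IRF4 region (15.5%, whole list 15.5%), and 17 of the 49 NCI-H929 IRF4 regions overlapped a NCI-H526 POU2F3 region (34.7%, 21.7 to 49.6, whole list 21.1%). The lower bound of this last share was 20.2 with 10 kb windows, 19.1 with −log10 q of at least 5 and 18.3 with 50% of the region covered. NCI-H1048 POU2F3 regions overlapped a NCI-H526 POU2F3 region at 21 of 26 (80.8%, whole list 56.6%), a NCI-H526 HA-POU2AF2 region at 16 (61.5%, 31.9%) and a region of the unnamed HA protein at 13 (50%, 29.2%). In the remaining pair above its list, 26 of 53 NCI-H526 HA-POU2F3 regions overlapped a HA-POU2AF2 region (49.1%, 32.6%). The 90 pairs share lists and sites and are not independent.

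With AU-15330, 8 sites were called in both tumours. They were the ETS1 internal promoter, the promoters of FLI1, ETV6 and ETS2, both ELF1 sites at chr13:40921318-40922092 and at the shared WBP4 start, a site downstream of SPIB at chr19:50431545-50432338, whose nearest start is that of MYBPC2, and a site downstream of ERG at chr21:38355825-38356326. Of these 8, 5 were promoter sites. In SCLC-P, NCI-H1048 POU2F3 was the only list with AU-15330 at the FLI1, ETV6, ETS2, SPIB and ERG ones, with folds of 3.72, 3.40, 3.21, 4.46 and 3.72. Leaving out that list, 3 sites had AU-15330 regions in both tumours, the ETS1 internal promoter and both ELF1 sites.

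Regions called with AU-15330 and not with DMSO were most frequent in NCI-H1048 POU2F3. That list had 42 regions at the 10 genes, of which 28 had no DMSO counterpart, where 67.3% of its whole list had none. EHF had 12 regions with AU-15330 against 6 with DMSO in this pair, SPI1 and ELF1 4 against 1 each, and ETV6 10 against 10. MM1.S POU2AF1 followed with 11 of 22 (38.9% of its whole list), and NCI-H526 HA-POU2F3 with 7 of 12 (41.9%). The other pairs had 0 to 3, at NCI-H526 POU2F3 2 of 28 (15.3%), NCI-H526 HA-POU2AF2 0 of 1 (83.8%), NCI-H1048 HA-POU2F3 3 of 4 (73.7%), the unnamed HA protein 2 of 2 (72.0%), MM1.S IRF4 1 of 4 (49.9%), NCI-H929 POU2AF1 3 of 9 (31.2%) and NCI-H929 IRF4 0 of 1 (70.7%). Over all lists, 28 of the 209 sites were called with AU-15330 alone, against 42279 of 252622 sites over the whole series.

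The number of the 10 genes with any region was lower with AU-15330 than with DMSO in 9 of 10 pairs. In NCI-H526 it was 9 for POU2F3 (48.5% of coding genes), 5 for HA-POU2F3 (53.1%) and 1 for HA-POU2AF2 (10.6%). In NCI-H1048 it was 10 for POU2F3 (88.7%), 2 for HA-POU2F3 (26.9%) and 2 for the unnamed HA protein (5.44%). In myeloma it was 7 for MM1.S POU2AF1 (74.5%), 3 for MM1.S IRF4 (36.4%), 5 for NCI-H929 POU2AF1 (71.8%) and 1 for NCI-H929 IRF4 (9.54%).

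The octamer core was common at SCLC-P regions of these genes, as over the whole lists. Within 100 bases of the summit, on both strands, TTTGCAT was found at 48 of 110 NCI-H526 POU2F3 regions with DMSO (43.6%, whole list 46.9%), 19 of 53 HA-POU2F3 (35.8%, 35.6%) and 26 of 43 HA-POU2AF2 (60.5%, 46.1%). In NCI-H1048 it was found at 15 of 26 POU2F3 (57.7%, 44.5%) and 14 of 22 HA-POU2F3 regions (63.6%, 52.4%). In myeloma it was found at 5 of 37 MM1.S POU2AF1 (13.5%, 7.29%), 5 of 37 MM1.S IRF4 (13.5%, 4.59%), 4 of 22 NCI-H929 POU2AF1 (18.2%, 7.99%) and 3 of 49 NCI-H929 IRF4 regions (6.12%, 5.18%). The share was thus higher at each of these SCLC-P lists than at any myeloma list. Retained and lost regions differed in no single direction. Among NCI-H526 POU2F3 regions, 17 of 26 retained and 31 of 84 lost ones held it, where the whole list had 54.8% and 45.3%. In NCI-H1048 HA-POU2F3, 1 of 1 retained and 13 of 21 lost ones did (whole list 48.7% and 52.7%). The share was lower at retained regions for NCI-H526 HA-POU2F3, with 1 of 5 retained and 18 of 48 lost (whole list 31.9% and 36.2%). It was also lower for HA-POU2AF2, with 0 of 1 and 26 of 42 (whole list 40.7% and 46.2%). NCI-H1048 POU2F3 had 7 of 13 and 8 of 13 (whole list 39.8% and 48.2%). Apart from NCI-H526 POU2F3, these pairs had too few retained regions to set an order.

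By site the octamer core was found at 44 of 102 sites called with DMSO in SCLC-P only (43.1%), 9 of 27 called in both tumours (33.3%), 5 of 51 called in myeloma only (9.80%) and 2 of 26 called with AU-15330 alone (7.69%), counting sites with a summit. The ETS-IRF composite, which can overlap a tandem pair of GAAA cores, was found at 2 of 102 (1.96%), 4 of 27 (14.8%), 3 of 51 (5.88%) and 2 of 26 (7.69%) of the same groups. A site counted where any summit in it had the pattern, so sites called in more lists had more sequence scanned. The shares of these groups therefore cannot be compared directly, and the same shares over the whole series were not computed. By list with DMSO it was at 6 of 37 MM1.S IRF4 regions (16.2%, whole list 6.62%), 4 of 37 MM1.S POU2AF1 (10.8%, 3.67%), 4 of 110 NCI-H526 POU2F3 (3.64%, 1.92%) and 1 of 49 NCI-H929 IRF4 regions (2.04%, 4.89%). The MM1.S regions that held it were at SPI1, FLI1, ETV6, ELF1 and ERG. A match is a string of letters and was not tested as a binding site.

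The other 18 ETS genes gave the comparison within the family. Of their DMSO regions, 22 of 86 were retained in NCI-H526 POU2F3 (25.6%, whole list 16.7%), 11 of 50 in HA-POU2F3 (22%, 14.6%) and 0 of 29 in HA-POU2AF2 (whole list 1.26%). In NCI-H1048 it was 24 of 32 for POU2F3 (75%, 44.6%), 6 of 19 for HA-POU2F3 (31.6%, 7.72%) and 0 of 19 for the unnamed HA protein (whole list 1.95%). In MM1.S the counts were 26 of 58 for POU2AF1 (44.8%, 33.7%) and 1 of 45 for IRF4 (2.22%, 9.76%). In NCI-H929 they were 22 of 41 for POU2AF1 (53.7%, 38.4%) and 0 of 72 for IRF4 (whole list 0.888%). No interval was computed for these shares. ELF2, a close relative of ELF1, had 2 regions with AU-15330 against 11 with DMSO in NCI-H526 POU2F3, and none against 11 in NCI-H929 IRF4. ELK3, a target of MAPK signalling, had 2 against 9 in NCI-H526 POU2F3, and ERF, an ETS repressor, had none against 9 in NCI-H929 IRF4.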

How the data were processed

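Fragments from 20 ChIP-seq libraries were processed by the authors, whose notes name Trimmomatic 0.39, BWA, SAMtools, Picard and MACS2, on GRCh38. The deposited region lists give a score, a fold enrichment (a ratio), −log10 of the p-value, −log10 of the q-value and, in 18 lists, the summit as an offset within the region. Regions off chromosomes 1 to 22, X and Y (0.283% to 12.4% per list) were left out. Regions were joined to genes of GENCODE 44 with Python 3.11.15, pandas 2.3.3, numpy 2.4.6, scipy 1.17.1 and matplotlib 3.10.9. A region was retained where it overlapped a region of the other treatment by 1 base or more. Summit heights were recovered from the fold and p-value as whole numbers within 0.002, along with the library background, which is a decimal. Tag number (17.3 to 53.7 M) was estimated from that background, a genome of 2.7 Gb and a fragment length. The fragment length was taken as the width of the narrowest region. In NCI-H1048 HA-POU2F3, backgrounds of 2.081 (AU-15330) and 2.067 (DMSO) thus gave 37.0 M and 28.5 M tags. The scripts were tested on simulated data. Shares have exact 95% binomial intervals, which cover counting error. Per gene, the regions named are the one with the highest DMSO fold in each list, those within 1 kb of a start, every retained HA-POU2AF2 region and each site called with AU-15330 in both tumours, with others chosen after their values were seen. The genes and lists were chosen with earlier results of these data known. Alternatives were a stricter q-value, a 10 kb or 50 kb window, other overlap rules, summits, equal numbers of regions, and DMSO regions callable at the AU-15330 depth. Whole-list shares by place, motif and site were added after the data were seen.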

Additional observations from a re-analysis of the deposited data

How the results depend on the processing

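No paired analysis was possible because each condition has 1 library. Shares and densities were compared with the interval of the value reported, and numbers of genes with a region by whether they stayed within 1.5 times. The share of retained regions moved in 11 of 78. With 50% of the DMSO region covered it was 11.8% for NCI-H526 POU2F3 and 0 for NCI-H526 HA-POU2AF2 and NCI-H929 IRF4. With −log10 q of at least 5 in both lists it was 0 for NCI-H526 HA-POU2AF2 and NCI-H929 IRF4, and with summits within 200 bases 0 for NCI-H929 IRF4. With the same number of strongest regions in both lists it was 54.5% for NCI-H526 POU2F3, 14.3% for NCI-H526 HA-POU2AF2, 45% for MM1.S POU2AF1, and 0 for MM1.S IRF4 and NCI-H929 IRF4. The last alternative compares fewer DMSO regions by its construction, and the cause of the other moves was not tested. The number of the 10 genes with a region moved in 13 of 60. At −log10 q of at least 5 with AU-15330 it was 2 for NCI-H526 HA-POU2F3, 0 for HA-POU2AF2, 1 for NCI-H1048 HA-POU2F3, 0 for the unnamed HA protein, 4 for MM1.S POU2AF1, 1 for MM1.S IRF4 and 0 for NCI-H929 IRF4, and with DMSO 5 for NCI-H1048 POU2F3 and 3 for the unnamed HA protein. With 50 kb each side and AU-15330 it was 2 for NCI-H526 HA-POU2AF2, 4 for NCI-H1048 HA-POU2F3, 6 for MM1.S IRF4 and 2 for NCI-H929 IRF4. None of the 8 alternatives for sharing between NCI-H526 POU2F3 and NCI-H929 IRF4, or the 30 for density, moved a value beyond its interval, although the intervals themselves came to include 1 for density, or to overlap between retained shares, as given beside those results. Single libraries, few regions per gene and unequal depth, 17.3 M tags at the least, limit these results, and a weak region can be missed in a shallow library.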
